A study of Mus musculus with 19 samples.

Results

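The genes of the peroxisome proliferator-activated receptors (Ppara, Ppard and Pparg), the estrogen-related receptors (Esrra, Esrrb and Esrrg), the PGC-1 coactivators (Ppargc1a and Ppargc1b) and the 2 factors Rxra and Nrf1 were followed through lists of 5-hydroxymethylcytosine (5-hmC) peaks of mouse cardiomyocytes (CMCs). These 10 of the 20923 protein-coding genes on chromosomes 1 to 19 and X were chosen by name. Each gene region was the span of its curated RefSeq transcripts on mm10 plus 5 kb upstream, and its measure was the percent of its base pairs that lay under the peaks of a list.

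PPARs are nuclear receptors for fatty acids that pair with retinoid X receptors such as RXRA, bind DNA as heterodimers and switch on genes of fatty acid uptake and oxidation. ERRs are related receptors without a known natural ligand that drive genes of mitochondrial energy production, and PGC-1 coactivators dock on both families and on the nuclear respiratory factor NRF1 to raise their output. In the heart this network is known for the switch to fatty acid fuel after birth, and for lower activity in pathological hypertrophy. 5-hmC is formed when TET enzymes oxidize 5-methylcytosine, and is known to lie over gene bodies (GB).

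Each of the 4 groups had 2 biological replicates of CMCs from C57BL/6J mice. Prenatal cells came from E14.5 embryos and neonatal cells from newborns aged 1 to 2 days, while the adult group was 2 months old. In the last group adults had undergone transverse aortic constriction (TAC), in which the aorta is narrowed to raise the pressure the left ventricle pumps against, and were sampled 1 week later. The labels name no altered gene and no drug treatment, the study's methods name male mice, and the TAC surgery was done under ketamine and xylazine anaesthesia. The DNA was sonicated and its 5-hmC fragments were precipitated with an antibody and sequenced (hMeDIP). The adult group was not labelled as sham-operated, so the surgery and the pressure load cannot be told apart, and the CMC preparations kept a minority of other cells.

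The 8 lists held 104215 to 153637 peaks and covered 2.63% to 4.76% of the autosomes. The read numbers were not in the lists, so the depth behind each value is unknown. TAC replicate 2 stood apart: 7.89% to 16.7% of its peak centres lay inside a peak of another list, against 19.8% to 64.9% among the other 7 lists, and its centres lay 1.63 to 4.08 times as often within 1 kb beside another list's peaks as inside them, against 0.0718 to 0.582 times among the others. Values for TAC are therefore also given without this list. Among the others, E14.5 replicate 2 had 64.9% of its centres inside peaks of neonatal replicate 2 and 35.2% inside those of E14.5 replicate 1. Neonatal replicate 2 had 55.6% inside E14.5 replicate 2 and less inside neonatal replicate 1. E14.5 replicate 1 had 43.7% inside neonatal replicate 1 and 37.5% inside E14.5 replicate 2. Neonatal replicate 1 went the other way (40.8% and 42.3%). The part of these shares in the differences between neonatal and E14.5 was not tested. As a check of the cell type, 9 or 10 of 10 CMC genes held a peak in each list, with medians of 7.41% to 34.8% covered, whereas the medians of 9 fibroblast genes were 0% to 1.84%. Over 7 endothelial, 5 adipocyte and 4 macrophage genes the medians per list were 3.41% to 9.47%, 0% to 6.10% and 0% to 6.71%. Peaks mark 5-hmC, not expression.

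Stretches of DNA under these peaks are shown first, because the results below are about which of them were marked at which point. Each is at most 300 bases of the GRCm38 reference, the assembly of mm10, read on the plus strand around the middle of the base pairs that both replicates of a point had in common. Capitals mark CpG dinucleotides, the main place of cytosine methylation and hydroxymethylation in mammals. The first, chr15:85747005-85747304, is from an intron of Ppara, 11.6 kb into the gene, in a locus that held a peak in both replicates of all 4 points. The second, chr2:27684987-27685286, is from an intron of Rxra, 7.94 kb into the gene and again in a locus marked at every point.
Ppara intron: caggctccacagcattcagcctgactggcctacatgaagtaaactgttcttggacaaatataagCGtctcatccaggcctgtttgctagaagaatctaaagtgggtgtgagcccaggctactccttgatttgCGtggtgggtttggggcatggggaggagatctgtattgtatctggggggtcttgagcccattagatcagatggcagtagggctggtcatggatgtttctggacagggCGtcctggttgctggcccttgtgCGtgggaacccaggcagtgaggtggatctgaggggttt
Rxra intron: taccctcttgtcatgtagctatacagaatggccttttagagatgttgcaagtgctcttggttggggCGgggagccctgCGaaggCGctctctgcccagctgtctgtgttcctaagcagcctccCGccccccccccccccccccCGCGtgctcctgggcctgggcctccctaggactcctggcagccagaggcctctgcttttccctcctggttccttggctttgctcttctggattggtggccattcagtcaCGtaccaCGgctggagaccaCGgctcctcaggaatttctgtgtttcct

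The window of Ppara held 4 CpGs and that of Rxra 9. A shared locus did not mean the same bases in each list: the Ppara window was fully covered in neonatal replicate 1, both adult replicates and TAC replicate 1, 90.3% covered in E14.5 replicate 1, and 0% in the other 3 lists, whose peaks lay elsewhere in the locus. The Rxra window was fully covered in E14.5 replicate 2, neonatal replicate 1, both adult replicates and TAC replicate 1, 95.7% covered in TAC replicate 2 and 0% in the other 2 lists.

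The next 2 stretches, like the 2 above, were cut from base pairs common to both adult replicates. Their full coverage in adult CMCs was thus set by the choice. No other point had them fully covered in both replicates. The first, chr1:187606899-187607198, lies upstream of Esrrg, at -1.96 kb from the gene's start. The second, chr6:115462946-115463245, lies at a coding exon of Pparg, 102 kb into the gene.
Esrrg upstream: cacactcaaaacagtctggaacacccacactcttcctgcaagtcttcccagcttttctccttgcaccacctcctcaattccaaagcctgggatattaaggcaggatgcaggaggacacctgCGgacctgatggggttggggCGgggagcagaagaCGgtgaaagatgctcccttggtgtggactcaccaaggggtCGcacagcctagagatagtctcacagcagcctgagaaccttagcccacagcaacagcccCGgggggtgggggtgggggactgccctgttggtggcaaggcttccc
Pparg coding exon: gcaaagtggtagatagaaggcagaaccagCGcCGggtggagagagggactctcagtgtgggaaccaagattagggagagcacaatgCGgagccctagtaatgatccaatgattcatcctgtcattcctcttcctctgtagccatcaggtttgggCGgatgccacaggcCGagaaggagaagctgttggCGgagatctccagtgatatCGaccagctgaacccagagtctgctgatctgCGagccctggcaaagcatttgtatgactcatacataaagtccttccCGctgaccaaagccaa

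The Esrrg window was fully covered in both adult replicates, at most 6.33% in both neonatal replicates and 0% in the E14.5 and TAC lists. The window held 5 CpGs, and its locus also held a peak in both neonatal replicates. The Pparg window was fully covered in both adult replicates and neonatal replicate 1, and in none of the other 5 lists, and held 9 CpGs.

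The last 2 stretches were chosen for display after their values were seen. They were cut from base pairs common to both neonatal replicates (Ppargc1a) and both TAC replicates (Nrf1), which set their full coverage there. They are from the loci that had their centre within 1 kb of a transcription start site (TSS) and held a peak in both replicates of a point. One, chr5:51554254-51554553, lies 13.3 kb into Ppargc1a, 0.333 kb from an internal TSS, and was fully covered in both neonatal replicates and at 0% in the other 6 lists. The other, chr6:30074957-30075210, lies in an intron of Nrf1, 27.1 kb into the gene and 1.11 kb from an internal TSS, and was fully covered in both TAC replicates and at 0% in the other 6. Peaks centred farther away also reached within 1 kb of a TSS in both replicates of a point, for example over 26.5% and 25.9% of that part of Esrrb in adult and 36.0% and 18.2% of that part of Ppard in neonatal lists.
Ppargc1a internal TSS: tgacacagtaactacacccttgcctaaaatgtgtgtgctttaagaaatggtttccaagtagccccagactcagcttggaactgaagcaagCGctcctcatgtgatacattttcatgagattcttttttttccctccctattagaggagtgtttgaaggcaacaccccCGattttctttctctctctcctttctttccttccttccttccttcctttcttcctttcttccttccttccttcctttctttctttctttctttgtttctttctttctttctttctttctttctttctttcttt
Nrf1 intron: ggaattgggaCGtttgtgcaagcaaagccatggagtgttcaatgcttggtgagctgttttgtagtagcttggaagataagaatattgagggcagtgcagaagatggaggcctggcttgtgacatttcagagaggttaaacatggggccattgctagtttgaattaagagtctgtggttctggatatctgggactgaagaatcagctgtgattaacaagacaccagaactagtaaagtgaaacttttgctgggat

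Both stretches were poor in CpGs, with 2 in the 300 bases of Ppargc1a and 1 in the 254 bases of Nrf1. The Ppargc1a window ends in a long run of repeated C and T letters, and the part of this repeat in its peaks was not tested.

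Ppara encodes PPAR alpha, the main PPAR of fatty acid oxidation in heart and liver (chr15:85735564-85806851, plus strand). Peaks covered 7.12% and 3.67% of its region at E14.5, 17.8% and 21.7% in neonates, 26.7% and 22.2% in adults and 18.7% and 12.6% after TAC (replicates 1 and 2). Both E14.5 lists were below all 6 others, neonatal and adult replicates did not overlap, and TAC lay below adult and overlapped neonatal. The number of peaks was 6 and 5 at E14.5 and 15 to 19 in each later list. Of the 29 loci that the peaks of the 8 lists formed in Ppara, 5 held a peak in both neonatal and neither E14.5 replicate, and 0 the reverse. On the log2(percent covered + 1) scale adult exceeded E14.5 by 2.04 (SE 0.41), with an adjusted p of 0.121 (limma, Benjamini-Hochberg over 16244 genes), the lowest among the 10 genes in any of the 5 comparisons. With the number of peaks per 100 kb in place of the percent covered, the difference was 1.59 and passed the threshold of 0.05 (limma, adjusted p = 0.0284), the lowest of the alternatives tried, which reached up to 0.310. Neonatal exceeded E14.5 by 1.75 (SE 0.41; limma, adjusted p = 0.372). The 8 samples can be divided into 4 pairs in 105 ways, and an exact permutation test over these, one-sided toward wider separation of the pairs, gave Ppara p = 0.0286, or 0.563 after adjustment over the same genes.

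Ppard encodes PPAR delta, which acts on fatty acid use in muscle and heart (chr17:28232754-28301469, plus strand). Its coverage was 21.2% and 14.3% at E14.5, 16.6% and 30.2% in neonates, 33.0% and 43.1% in adults and 34.5% and 15.7% after TAC. Both adult lists were above both lists of E14.5 and of neonatal, while E14.5 and neonatal overlapped. The 2 TAC lists lay far apart, 1 among the adult values and the other among those of E14.5. Adult exceeded E14.5 by 1.07 (SE 0.50; limma, adjusted p = 0.351) and neonatal by 0.72 (SE 0.50; limma, adjusted p = 0.732). Base pairs common to both replicates made up 24.9% of the region in adult, compared with 8.17% at E14.5, 9.57% in neonates and 4.56% after TAC. Of 18 loci, 5 held a peak in all 8 lists, and 1 was found in a single list.

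Pparg encodes PPAR gamma, the receptor of fat cell differentiation (chr6:115360951-115490401, plus strand). It was the least covered of the 10: 1.86% and 1.23% at E14.5, 0.861% and 1.59% in neonates, 0.745% and 1.24% in adults and 2.35% and 0.857% after TAC. Each list held 2 to 5 peaks over 134 kb, and the replicates of each pair of points overlapped. The 2 lists of E14.5 and of neonatal had no base pair of Pparg in common, and those of adult and TAC had 0.379 kb and 0.291 kb. Its mean over the 4 points was above that of 27.0% of the 20923 protein-coding genes.

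Rxra encodes the retinoid X receptor alpha, the partner of the PPARs (chr2:27677201-27763319, plus strand). By its mean over the 4 points it was the most covered of the 10, with 29.2% and 16.6% at E14.5, 26.3% and 37.8% in neonates, 39.1% and 49.8% in adults and 31.1% and 16.5% after TAC. Adult stood above each of the other points in both replicates, and E14.5, neonatal and TAC overlapped. Adult exceeded E14.5 by 0.97 (SE 0.44; limma, adjusted p = 0.346), and TAC minus adult was -0.93 (SE 0.44; limma, adjusted p = 0.739) or -0.49 without TAC replicate 2. In adult CMCs 26.2% of the region was common to both replicates. Its mean coverage was above that of 99.2% of the protein-coding genes. Of its 24 loci, 7 held a peak in all 8 lists.

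Ppargc1a encodes PGC-1 alpha, the coactivator that induces mitochondrial biogenesis (chr5:51454249-51567725, minus strand). Coverage was 8.68% and 4.21% at E14.5, 10.7% and 13.9% in neonates, 5.89% and 7.15% in adults and 7.30% and 1.85% after TAC. Both neonatal lists were above all 6 others, which overlapped between points. Neonatal exceeded E14.5 by 0.89 (SE 0.62; limma, adjusted p = 0.850), and adult minus neonatal was -0.82 (SE 0.62; limma, adjusted p = 0.753). Of 36 loci, 10 held a peak in both neonatal replicates, 6 in both of E14.5, 4 in both of adult and 1 in both of TAC. In 8 loci both neonatal replicates and neither adult replicate held a peak, against 2 loci the other way. Both of the latter, 1523 bp at an exon outside the coding sequence and 653 bp in an intron, 110 kb and 10.1 kb into the gene, were also marked in TAC replicate 1.

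Ppargc1b encodes PGC-1 beta, a relative of PGC-1 alpha that coactivates ERRs and PPARs (chr18:61291445-61400412, minus strand). Peaks covered 23.6% and 12.1% of its region at E14.5, 42.0% and 47.0% in neonates, 22.8% and 20.8% in adults and 18.2% and 7.06% after TAC. The neonatal lists stood apart above the other 6, and TAC lay below adult in both replicates. Neonatal exceeded E14.5 by 1.34 (SE 0.51; limma, adjusted p = 0.697), adult minus neonatal was -0.995 (SE 0.514; limma, adjusted p = 0.684), and TAC minus neonatal was -1.87 (SE 0.51; limma, adjusted p = 0.322) or -1.24 without TAC replicate 2. The exact permutation test over divisions into pairs gave p = 0.0667 before adjustment and 0.566 after it.

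The neonatal peaks of Ppargc1b were wider than those of the other points in both replicates, and more numerous than those of adult and TAC. There were 28 and 29 of them, against 33 and 17 at E14.5, 25 and 21 in adult and 19 and 12 in TAC lists. Their mean width was 1711 and 1846 bp, against 670 to 1128 bp in the other 6 lists. Peaks over 4 kb numbered 2 and 3 in the neonatal lists and 0 in the others, and the widest spanned 7754 and 6277 bp in neonatal and at most 3529 bp elsewhere. Both neonatal replicates had 35.4 kb of Ppargc1b in common, 31.0% of the region and 53.6% of the base pairs that either list covered. The common share of the region was 5.68% at E14.5, 11.5% in adult and 2.74% in TAC CMCs. The mean neonatal coverage of Ppargc1b was above that of 99.6% of the protein-coding genes, against 95.8% at E14.5, 93.0% in adult and 90.7% in TAC.

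**Figure D1:**
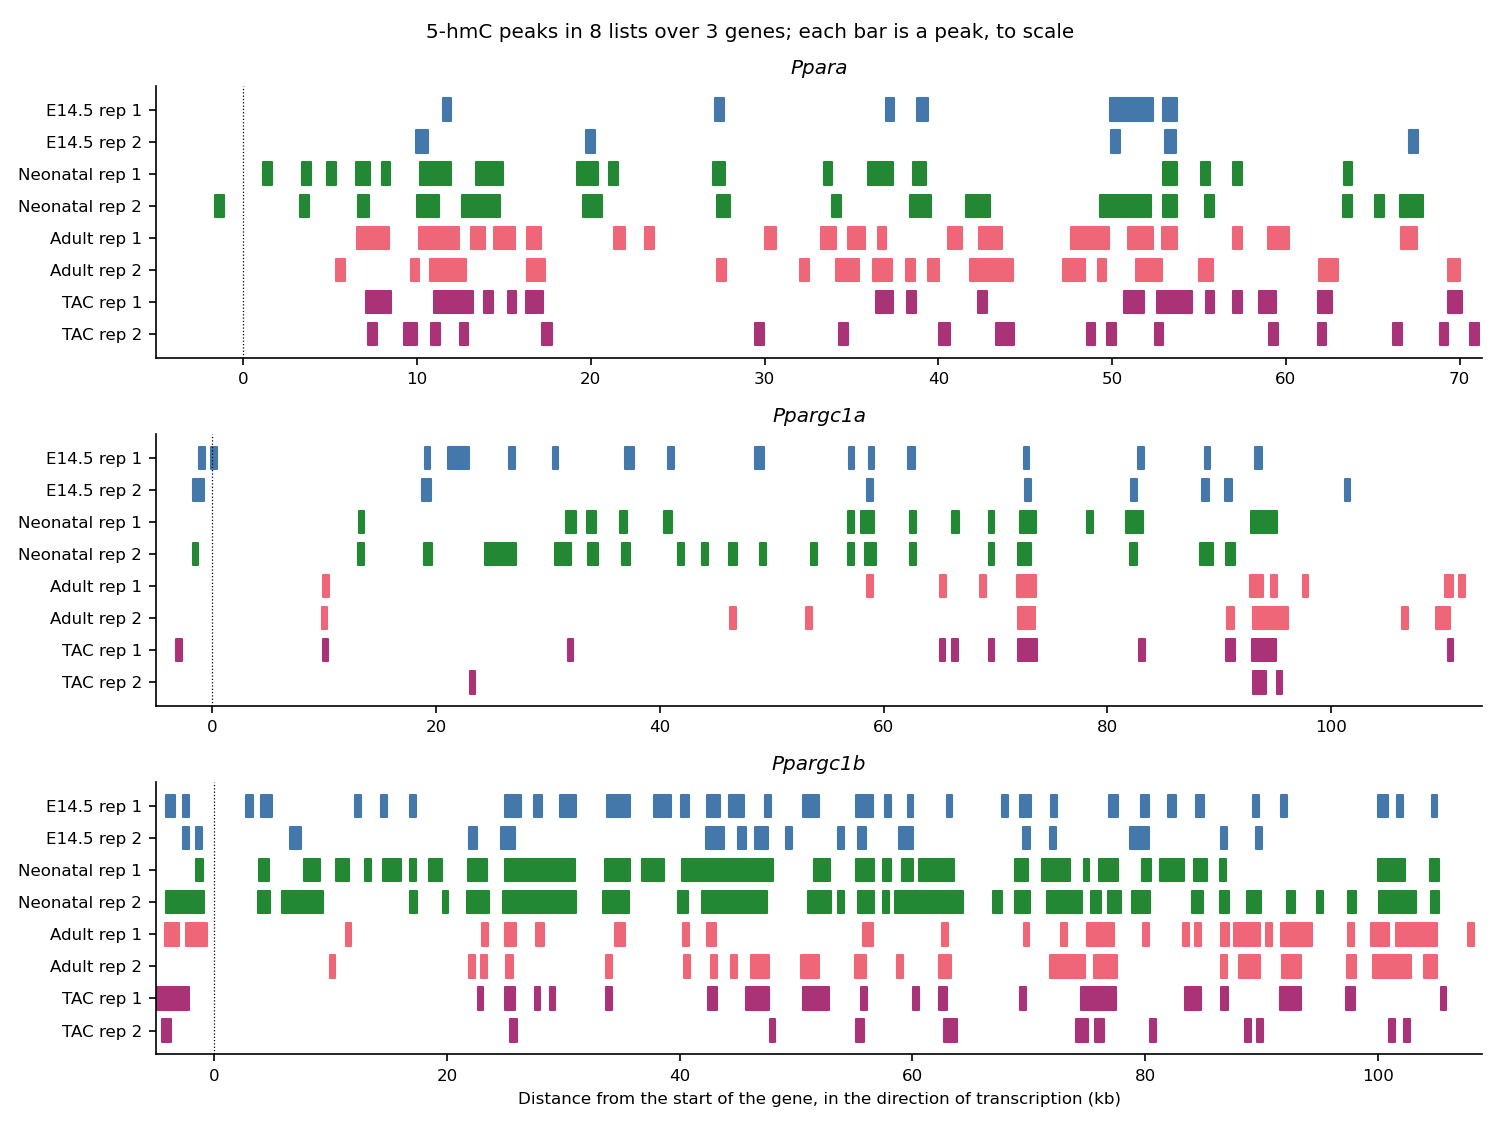
Peaks of the 8 lists over Ppara, Ppargc1a and Ppargc1b, by distance in kb from the start of the gene in the direction of transcription (the dotted line marks 0, negative values are upstream). Each bar is a peak to scale, coloured by point. The 2 E14.5 rows of Ppara hold 6 and 5 peaks against 15 to 19 in the others, and the neonatal rows of Ppargc1b hold the widest peaks, up to 7754 bp.

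Esrra encodes ERR alpha, a partner of PGC-1 in mitochondrial gene expression (chr19:6910977-6921808, minus strand). At 15.8 kb its region was the shortest, so that single peaks weighed heavily. Coverage was 15.5% and 3.16% at E14.5, 31.9% and 18.7% in neonates, 17.0% and 32.6% in adults and 29.4% and 15.1% after TAC. E14.5 lay below neonatal and adult in both replicates, and the 3 later points overlapped, as did TAC and E14.5. Each list held 1 to 5 peaks. Neonatal exceeded E14.5 by 1.62 (SE 0.76; limma, adjusted p = 0.814), and adult exceeded E14.5 by 1.57 (SE 0.76; limma, adjusted p = 0.362). The upstream part of this region overlapped Catsperz by 2.96 kb and Kcnk4 by 1.15 kb, and the other end of Esrra overlapped Trmt112 by 0.052 kb, so peaks there cannot be given to 1 gene.

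Esrrb encodes ERR beta, known best from pluripotent cells (chr12:86361117-86521628, plus strand). Its coverage was 10.1% and 6.40% at E14.5, 11.9% and 11.3% in neonates, 13.8% and 21.9% in adults and 11.97% and 5.35% after TAC. The order E14.5, neonatal, adult held without overlap, and TAC lay below adult and overlapped the other points. Adult exceeded E14.5 by 1.02 (SE 0.49; limma, adjusted p = 0.360), and TAC minus adult was -1.02 (SE 0.49; limma, adjusted p = 0.739) or -0.50 without TAC replicate 2. Of 73 loci, 8 were marked in both adult and neither E14.5 replicate, and 0 the other way. One locus, 3043 bp centred at -2.04 kb from the gene's start, held a peak in all 8 lists.

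Esrrg encodes ERR gamma, the ERR known for the oxidative metabolism of the heart after birth (chr1:187609006-188214885, plus strand). With 611 kb it was the longest region and held 72 to 113 peaks per list. Coverage was 10.6% and 12.1% at E14.5, 11.7% and 14.2% in neonates, 9.85% and 16.8% in adults and 12.3% and 7.57% after TAC. No pair of points was free of overlap, and the means lay between 9.95% and 13.3%. Of 245 loci, 15 held a peak in both adult and neither E14.5 replicate and 14 the reverse, and 86 were found in 1 list only. Replicates of the same point also differed in place. The 2 adult lists had 18.9% of the base pairs of Esrrg that either covered in common, and those of E14.5 somewhat more. Whether the places differed more between points than between replicates was not tested. The 5 kb upstream, outside 1 kb of a TSS, were covered to 47.1% and 100% in the adult lists, 20.4% and 27.2% in neonatal, 16.5% and 0% at E14.5 and 0% in both TAC lists. Its exons away from a TSS, 5.28 kb in all, were covered to 14.2% to 18.1% in the 6 lists of E14.5, neonatal and adult and to 0.436% and 0% in TAC. In each of these 6 lists 1 peak had its centre in such an exon, and all TAC peaks were centred in introns. Single peaks thus weighed heavily here, and the 0% is from TAC replicate 2, the list that stood apart.

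Nrf1 encodes nuclear respiratory factor 1, which switches on nuclear genes of the respiratory chain (chr6:30047988-30153458, plus strand). It was covered to 5.80% and 4.93% at E14.5, 4.76% and 5.71% in neonates, 3.80% and 5.37% in adults and 5.74% and 3.10% after TAC. All 4 points overlapped, and the 5 differences between points ranged from -0.24 to -0.03 on the log2 scale. Relative to the autosomes 3 of the 5 changed sign, the largest to 0.26 in TAC minus neonatal. Each list held 6 to 10 peaks, and 13 of 31 loci were found in 1 list only. None of the loci was marked in both replicates of all 4 points.

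**Figure D2:**
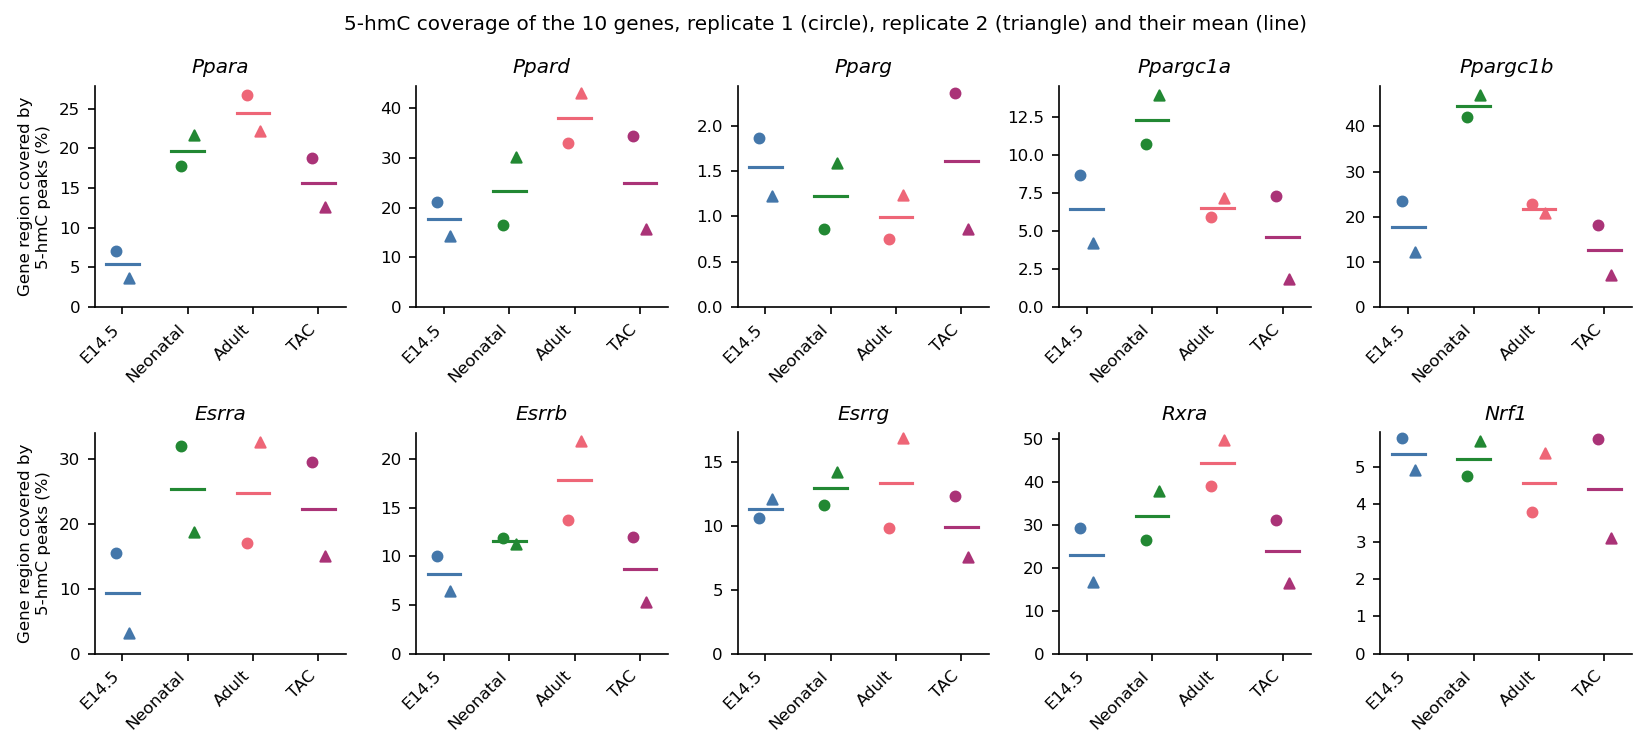
Percent of each gene region covered by 5-hmC peaks (vertical axis, each from 0 and scaled to its gene) at the 4 points (horizontal axis). Circles are replicate 1, triangles replicate 2 and lines their mean. Ppara at E14.5 (7.12% and 3.67%) lies below all later lists, and Ppargc1a and Ppargc1b have their highest values in the neonatal lists.

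In the comparison of neonatal with E14.5 CMCs, 5 of the 10 genes (Ppara, Ppargc1a, Ppargc1b, Esrra and Esrrb) were higher in both neonatal replicates than in both of E14.5, and 0 were lower. Among all 16244 genes tested 27.2% were higher and 6.72% lower by this rule. The median log2 difference was 0.49 over the 10 and 0.24 over all. Neonatal lists also covered more of the autosomes: when each value was divided by the autosomal coverage of its list, 3 genes (Ppara, Ppargc1a and Ppargc1b) were higher and 1 (Nrf1) lower, and 20.5% of all genes were higher and 15.3% lower. The part of that coverage in the result was not tested. Ppara stood at 1.99 and 0.959 times the autosomal coverage at E14.5 and at 4.56 times in both neonatal lists.

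From neonatal to adult CMCs 4 genes (Ppara, Ppard, Esrrb and Rxra) were higher in both adult replicates and 2 (Ppargc1a and Ppargc1b) were lower, beside 16.8% and 20.8% of all genes tested. The higher genes encode receptors and the lower ones the coactivators, but the receptor genes Pparg, Esrra and Esrrg overlapped, as did Nrf1. None of these differences passed an adjusted p of 0.05 in limma, and a split by function was not tested. The 9 CMC genes that could be tested were also all lower in both adult replicates, and the summed coverage of the 10 CMC genes was 296 and 310 percentage points in neonatal and 122 and 186 in adult lists. Their part in the lower values of Ppargc1a and Ppargc1b was not tested. The median difference was -0.02 over the 10 and -0.05 over all genes. Relative to the autosomes 6 genes were higher, with Esrrg and Nrf1 added, and the same 2 lower, beside 28.3% and 15.5% of all genes. Counted as peaks per 100 kb, 0 were higher and the same 2 lower, beside 11.7% and 15.2% of all genes, and the numbers of peaks in the 4 receptor genes overlapped between these points. In Rxra, for example, the adult lists held 22 and 27 peaks with means of 1617 and 1680 bp, and the neonatal lists 22 and 23 with 1103 and 1528 bp.

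In TAC against adult CMCs 0 genes were higher and 4 (Ppara, Ppargc1b, Esrrb and Rxra) lower in both TAC replicates, beside 5.91% and 25.2% of all genes. The median difference was -0.63 over the 10 and -0.33 over all. With TAC replicate 1 alone the same 4 lay below both adult lists (33.3% of all genes), and 3 genes, Pparg, Ppargc1a and Nrf1, lay above them (20.04%). Relative to the autosomes 2 genes, Esrrb and Rxra, were lower and 1, Pparg, higher, beside 17.4% and 12.5% of all genes. On this scale with TAC replicate 1 alone, Ppard, Pparg, Ppargc1a, Esrra and Nrf1 lay above both adult lists, and Esrrb and Rxra below them. The share of all genes was not counted for this setting, so these counts cannot be read as particular to the 10. Scaling alone and TAC replicate 1 alone had each raised the share of higher genes, from 5.91% to 12.5% and 20.04%. Of 4 macrophage genes, 4 held a peak in each E14.5, neonatal and adult list and 1 in each TAC list, with Adgre1 and Cd68 at 0%, and their summed coverage was 26.1 to 48.9 percentage points in the former and 1.64 and 1.71 in the TAC lists. Of 6 endothelial genes tested, 4 were lower and 0 higher in TAC than in adult CMCs (5 and 0 with TAC replicate 1 alone), and the summed coverage of all 7 was 43.7 and 52.9 percentage points in adult and 36.1 and 29.3 in TAC lists. The part of these cells in the TAC values was not tested. For Ppara the log2 difference of -0.63 (SE 0.41; limma, adjusted p = 0.739) became -0.36 without TAC replicate 2.

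Across the whole span from E14.5 to adult, 5 genes (Ppara, Ppard, Esrra, Esrrb and Rxra) were higher in both adult replicates and 0 lower, beside 30.5% and 17.2% of all genes, with medians of 0.66 and 0.19. Both PGC-1 genes overlapped between these points. In TAC against neonatal CMCs 0 genes were higher and 2, Ppargc1a and Ppargc1b, lower, beside 6.52% and 30.7% of all genes, and both also lay below the neonatal lists relative to the autosomes and with TAC replicate 1 alone (39.6% of all genes), where 4, Ppard, Pparg, Esrrb and Nrf1, lay above (24.3%). Marker genes were lower as well: 9 of 9 CMC genes tested in both settings, with a median log2 difference of -1.35, and 3 of 4 macrophage and 3 of 6 endothelial genes (4 of each with TAC replicate 1 alone), and their part in the lower PGC-1 genes was not tested. Relative to the autosomes 1 gene, Ppara, was higher, and the background of that comparison became 19.8% higher and 14.8% lower. On this scale with TAC replicate 1 alone, all genes but Ppargc1a and Ppargc1b lay above both neonatal lists, and these 2 lay below them. The share of all genes was not counted for this setting. For the span from E14.5 to adult the same scaling gave 6 genes higher, with Esrrg added, and 1, Pparg, lower, beside 33.8% and 17.7%. These comparisons share samples with one another.

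**Figure D3:**
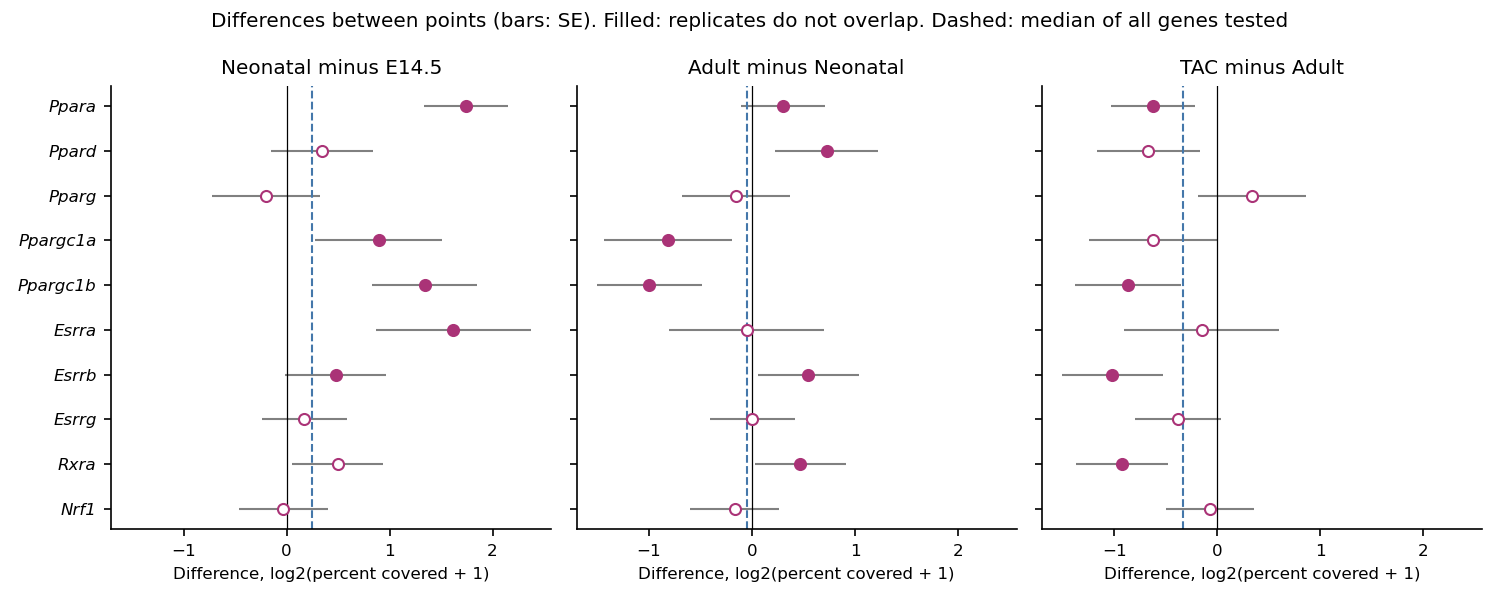
Differences in log2(percent covered + 1) for the 10 genes in the 3 transitions, with standard errors as bars. Filled points mark genes whose replicates did not overlap between the 2 points and the dashed line the median of all genes tested (0.24, -0.05 and -0.33). Ppargc1a and Ppargc1b lie to the right of 0 in the first panel and to the left in the second.

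No gene of the 10, and none of the 16244, passed an adjusted p of 0.05 in limma in any of the 5 comparisons or over the 4 points, where 1945 genes had an unadjusted p under 0.05 (1106 to 2662 in the 5 comparisons). That count of 0 depended on the measure: with the gene span alone 318 genes were called over the 4 points, and with the number of peaks 368. The exact permutation test also called 0 genes after adjustment, and 7.96% of genes had p under 0.05 before it. For 2 samples against 2 the smallest p of a two-sided exact permutation test is 0.333. In data simulated for adult minus E14.5 on this scale, limma found 52% of genes changed by a log2 difference of 4, 8% of those changed by 2 and 0% of those changed by 1. The simulation changed 50 genes per size and set no upper limit at full coverage. Its larger changes can thus exceed what a gene region can show.

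By place, most of the peaks were in introns. Of 163 to 267 peaks per list in the 10 regions, 87.2% to 92.1% had their centre in an intron, and 0 to 4 lay within 1 kb of a TSS. Relative to the length available, and with base pairs pooled over the 10 genes, exons were the most densely marked part. Exons away from a TSS were covered to 18.2% and 12.1% at E14.5, 23.3% and 30.5% in neonates, 28.4% and 36.5% in adults and 24.4% and 9.51% after TAC, whereas introns were covered to 7.13% to 18.04%. The exons of all protein-coding genes were covered to 3.96% to 12.4% and their introns to 3.6004% to 6.96%. Within 1 kb of a TSS the 10 genes were covered to 0.568% to 8.11% and all genes to 3.93% to 6.50%. In every list the pooled base pairs of the 10 genes were thus above those of all genes in exons, introns and upstream, and near a TSS they lay above them in 4 of 8 lists. This did not hold for each gene. The introns of Pparg were covered to 0.650% to 2.16% and its upstream part to 0% in every list. In adult replicate 1 the introns of Nrf1 were covered to 2.78%, against 5.20% over all genes.

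**Figure D4:**
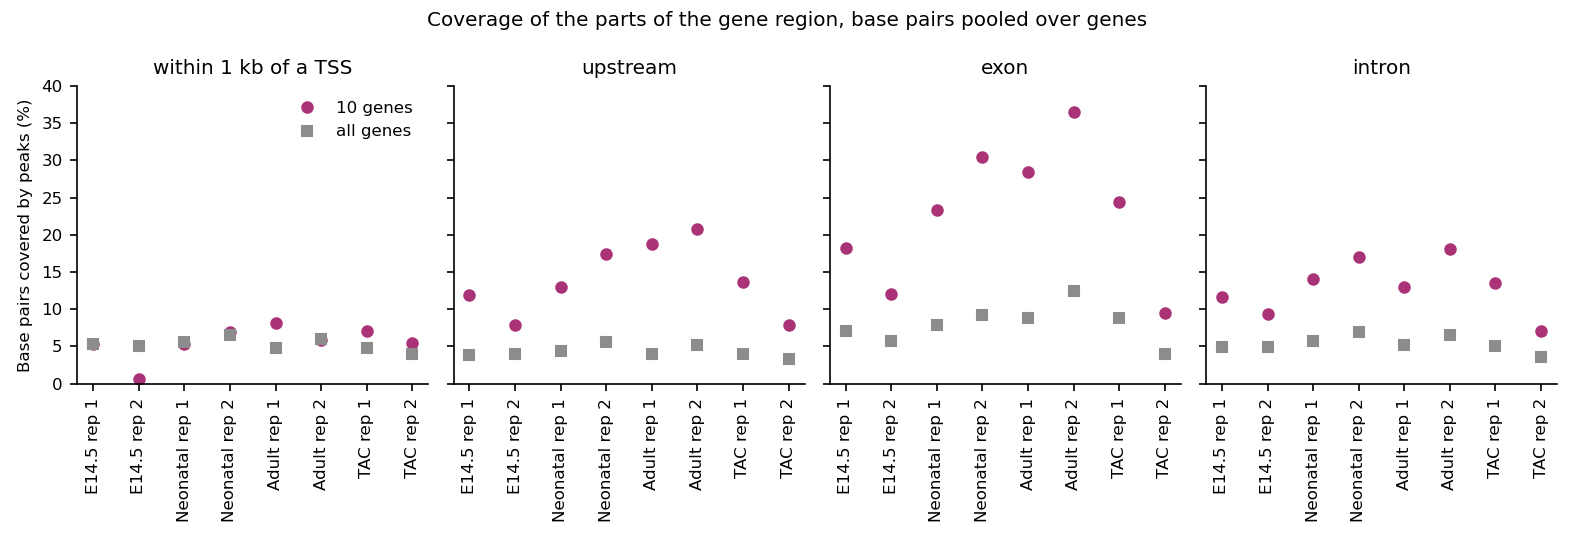
Percent of base pairs covered by peaks in 4 parts of the gene regions, pooled over the 10 genes (circles) and over all protein-coding genes (squares), for each of the 8 lists. The exon values of the 10 genes run from 9.51% to 36.5% and those of all genes from 3.96% to 12.4%, while near a TSS both stay under 8.2%.

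Esrra had the most CpG-rich region, with 2.26 CpGs per 100 bp, and Pparg and Ppargc1a the poorest, with 0.59 and 0.74. Base pairs under peaks held more CpGs than the regions as a whole, with 1.24 to 1.67 per 100 bp in the 8 lists against 1.12 over the 10 regions together. In Ppargc1a every list had 1.13 to 1.92 per 100 bp under peaks, whereas Nrf1, with 1.05 over its region, had 1.02 to 1.38. Peaks over the 10 regions held 7.95% to 26.2% of their 16901 CpGs and 7.19% to 18.4% of their base pairs.

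The peaks of the 8 lists formed 513 loci in the 10 regions. Of these 167 held a peak in 1 list only, 228 in both replicates of at least 1 point and 29 in all 8 lists. The 29 were in Esrrg and Rxra (7 each), Ppard and Ppargc1b (5 each), Esrrb (3) and Ppara (2), and none were in Pparg, Ppargc1a, Esrra or Nrf1. Both replicates marked 103 loci at E14.5, 131 in neonates, 115 in adults and 75 after TAC. Over the 10 regions the 2 replicates had 22.7%, 31.6%, 27.8% and 8.66% of their covered base pairs in common at the same points, against 21.6%, 24.7%, 20.3% and 5.69% over chromosomes 1 to 19 and X.

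Binding motifs of the pathway were looked up on both strands by their letters. The ERR element TCAAGGTCA, the PPAR and RXR element (AGGTCA, any 1 base, AGGTCA again, which shares these letters with the former) and the NRF1 element (GCGC on either side of AT) had no match in the 11 windows chosen, of which 6 are printed above. They occurred in 0.905%, 0.0979% and 0.0461% of 300-base windows around all peak centres of adult replicate 1 and in 0.423%, 0.0396% and 0.971% of 32851 RefSeq promoters. Of 17 promoters of the 10 genes 1, of Ppara, held the NRF1 element, and that match lay under a peak in 0 of 8 lists. Ppargc1b held 6 ERR elements, of which 2 and 3 lay under neonatal peaks, 2 and 2 under E14.5 peaks, 0 under adult peaks and 1 and 0 under TAC peaks. Ppard went the other way between neonatal and adult, with 0 of its 3 under neonatal peaks and 2 and 2 under adult peaks. Esrrg held 26, of which 1 to 5 lay under the peaks of a list, Esrrb 13, of which 0 to 5 did, and the other 6 genes 2 or 3 each, of which at most 1 did. These examples were chosen after their values were seen. Peaks covered 42.0% and 47.0% of the Ppargc1b region in neonatal and 22.8% and 20.8% in adult lists. For Ppard these shares were 16.6% and 30.2% in neonatal and 33.0% and 43.1% in adult lists. Whether the elements lay under peaks more often than other bases was not tested. A match in letters is no evidence of binding.

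The network around the 10 genes was followed in 2 lists. Of 24 partners and cofactors (other RXRs, nuclear receptor coactivators and corepressors, and mitochondrial transcription factors), 14 were higher and 1 lower in both neonatal replicates than at E14.5, 6 higher and 4 lower in adult than in neonatal, and 0 higher and 10 lower in TAC than in adult CMCs (4 and 10 with TAC replicate 1 alone). Over all genes tested the shares were 27.2% and 6.72%, 16.8% and 20.8%, and 5.91% and 25.2% (20.04% and 33.3%). None passed the test. Sirt1, a deacetylase of PGC-1 alpha, had the largest difference upward from E14.5 (3.40% and 0%) to neonatal (9.80% and 6.00%; log2 difference 2.05, SE 0.73; limma, adjusted p = 0.654), and Tfb1m, a mitochondrial methyltransferase, the only one downward, from 1.60% and 1.15% to 0% in both. Between neonatal and adult Rxrg, the gamma RXR, stood out upward, from 1.73% and 5.25% to 14.1% and 9.47%, and Nr0b2, a receptor that represses others, downward, from 16.7% and 31.0% to 1.67% and 0%. In TAC Rxrg was at 8.32% and 0.478%.

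Of 32 target genes of the pathway (fatty acid uptake and oxidation, tricarboxylic acid cycle and respiratory chain), 25 were higher and 0 lower in both neonatal replicates than at E14.5, beside 27.2% and 6.72% of all genes, with a median log2 difference of 1.45 beside 0.24 over all. From neonatal to adult 8 were higher and 9 lower, beside 16.8% and 20.8% of all genes, and from adult to TAC 0 were higher and 9 lower, beside 5.91% and 25.2%. With TAC replicate 1 alone the latter were 9 and 12, beside 20.04% and 33.3%. The medians were -0.03 and -0.52. None passed the test. Cox4i1, a subunit of cytochrome c oxidase, had the largest difference between E14.5 (4.56% and 0%) and neonatal CMCs (42.1% and 46.4%; log2 difference 4.26, SE 0.89; limma, adjusted p = 0.267). In adult CMCs it was at 24.998% and 43.8% and in TAC at 17.6% and 6.22%. Acadvl, a dehydrogenase of very long-chain fatty acids, was at 0% and 25.5% in neonatal and 30.6% and 33.2% in adult lists, and Fabp3, the fatty acid carrier of heart muscle, at 38.2% and 8.55% in neonatal and 6.34% and 0% in adult lists.

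The levels of the lists differed in their course. The median coverage of the 10 genes was 10.3% and 5.66% at E14.5, 14.2% and 16.5% in neonates, 15.4% and 21.4% in adults and 15.3% and 7.31% after TAC. The median of the targets went from 5.38% and 3.17% at E14.5 to 14.2% and 17.6% in neonates and 13.8% and 15.1% in adults. Over all protein-coding genes the median stayed between 2.53% and 4.28%, below the median of the 10 genes in each list.

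**Figure D5:**
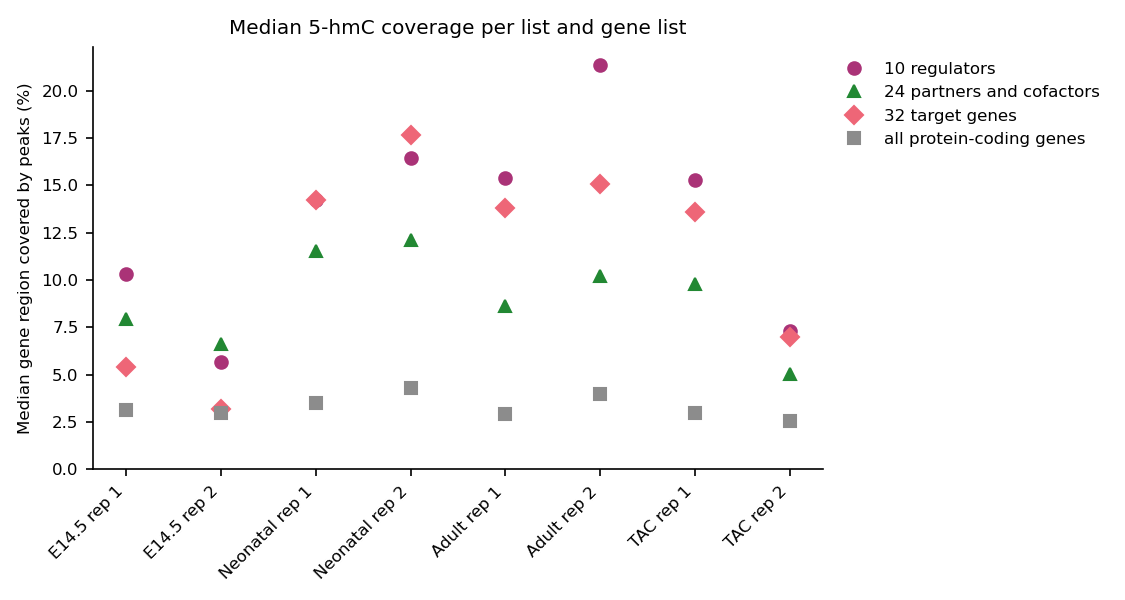
Median percent of the gene region covered by peaks in each of the 8 lists, for the 10 regulators, 24 partners and cofactors, 32 target genes and all protein-coding genes. The targets start at 5.38% and 3.17% at E14.5, near the 3.12% and 2.99% of all genes, and lie at 13.6% to 17.6% in the neonatal and adult lists and TAC replicate 1.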

How the data were processed

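5-hmC peak lists of 8 CMC samples were used, 2 replicates at each of 4 points; 11 other samples of the series have no peak list among the files used here. Per the study's methods, BWA 0.7.4-r385 was the authors' aligner (mm10), and they marked duplicates with Picard and called peaks in each replicate alone against input with HOMER. The deposited start and end positions of each peak (unit other) were used, and the deposited score column holds 1 for every peak and was not used. By the list headers, HOMER brought the input to the size of the precipitated library in 4 lists and did the reverse in 4.

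The 10 genes and the lists of partners, targets and markers were chosen with earlier results of these data known. All 10 are named, and of the partners and targets the gene with the largest difference each way per transition among those whose replicates did not overlap. Gene regions were curated RefSeq spans plus 5 kb upstream. Coverage was tested as log2(percent + 1) with limma 3.58.1 in R 4.3.3 over the 16244 genes with a mean of at least 1%, with Benjamini-Hochberg adjustment and all 8 samples in 1 fit. Points were said not to overlap where both replicates of 1 lay above both of the other. Peaks sharing at least 1 bp across lists were merged into loci. Intervals were counted with Python 3.11.15, numpy 2.4.6, pandas 2.3.3 and pysam 0.24.0. The fit was tested on simulated data, 50 genes per size of change. Alternatives were another pseudocount, scale, filter, region, measure, peak width and scaling, the replicate number as a block, and leaving out each list.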

Additional observations from a re-analysis of the deposited data

How the results depend on the processing

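Of 374 alternative values for the 22 differences of the 10 genes whose replicates did not overlap, 372 kept their direction and their side of the threshold. The exceptions, both with peaks per 100 kb, were Ppard, adult minus neonatal, at -0.0137 and Ppara, adult minus E14.5, at 1.59 (limma, adjusted p = 0.0284). The 22 were picked because their replicates did not overlap. Another pseudocount, scale or filter, the block and leaving out 1 list could therefore not turn their direction. None of the 22 had passed the threshold in the fit as reported, and their few reversals cannot be compared with those of the other differences. Of the other 28 differences, whose replicates overlapped, 26 changed sign under at least 1 alternative, in 53 of 476 values, of which 12 were under scaling to the autosomes, and 0 of the 476 passed the threshold in limma. The count of genes called was 0 in each limma fit as reported. Over the 4 points and for neonatal minus E14.5, adult minus neonatal, TAC minus adult, adult minus E14.5 and TAC minus neonatal, it was 207, 14, 9, 45, 174 and 43 with a pseudocount of 0.1, 368, 93, 181, 50, 283 and 193 with peaks per 100 kb, and 318, 73, 205, 129, 277 and 179 with the gene span only. Peaks widened by 500 bp gave 110 over the 4 points, 5 for neonatal and 154 for adult minus E14.5, and scaling to the autosomes 1 for adult minus neonatal and 7 for adult minus E14.5. Leaving out 1 list at a time gave 0 to 256, 0 to 54, 0 to 62, 0 to 159, 0 to 236 and 0 to 191. The cause was not tested.

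Of the 10 genes, scaling to the autosomes left 3 higher and 1 lower in neonatal than E14.5, 1 higher and 2 lower in TAC than adult, 1 lower in adult than E14.5 and 1 higher in TAC than neonatal. With peaks per 100 kb 2 were higher in neonatal than E14.5, 0 in adult than neonatal and 2 in adult than E14.5, and 2 were lower in TAC than adult. With widened peaks 2 were higher in adult than neonatal. Leaving out 1 list at a time gave 5 to 8 higher and 0 to 2 lower in neonatal than E14.5, 4 to 6 and 2 to 6 in adult than neonatal, 0 to 3 and 4 to 9 in TAC than adult, 5 to 7 and 0 to 4 in adult than E14.5, and 0 to 4 and 2 to 10 in TAC than neonatal. Without TAC replicate 1, which leaves the list that stands apart, 9 genes were lower than adult and 10 lower than neonatal, beside 47.2% and 51.1% of all genes. Joining peaks no more than 1 kb apart gave 244 loci, and counts per gene moved with it. Loci of Ppara in both neonatal and neither E14.5 replicate went from 5 to 1. Those in both adult and neither E14.5 replicate went from 8 to 3 in Esrrb and from 15 to 5 in Esrrg, where the reverse went from 14 to 8. Loci of Rxra in all 8 lists went from 7 to 3.

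With the replicate number as a block (replicate block) 0 genes were called in each fit. In gene coverage same-numbered samples deviated together weakly, with correlations of 0.244 between E14.5 and neonatal and 0.0132 to 0.0981 between the other points. The numbers were therefore not taken as pairs. Peak places of E14.5 and neonatal were shared more by number, except in neonatal replicate 1. For E14.5 replicate 2, 64.9% of centres lay inside neonatal replicate 2 and 35.2% inside E14.5 replicate 1. A pairing of these 2 points was not tested beyond the block. With 2 replicates per point and no depth, an absent peak does not show that 5-hmC was absent.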
